A study of Homo sapiens with 8 samples.

Results

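The mRNAs described here encode heterogeneous nuclear ribonucleoproteins (hnRNPs), SR proteins and subunits of the small nuclear ribonucleoproteins (snRNPs), that is, protein-coding genes of the GENCODE annotation of hg19 whose symbol starts with HNRNP, SRSF, SF3A, SF3B or SNRP. The rule found 58 of 20176 protein-coding genes. For 1 of them, HNRNPUL2-BSCL2, a readthrough of a pair of neighbouring genes, no exon was counted, which left 57: 24 hnRNP genes, 12 SR protein genes, 3 SF3A genes, 6 SF3B genes and 12 SNRP genes. The study used HEK293, a widely used line derived from human embryonic kidney. In miCLIP, a myc-tagged RNA methyltransferase is trapped on its target cytosine by a covalent bond, and reverse transcriptase halts next to the trapped base. Cells were collected 24 hours after transfection with NSun3 (3 libraries) or NSun6 (3 libraries), and both groups therefore overexpressed a tagged enzyme. Neither an untransfected nor an empty-vector library was analysed here. The study's methods describe the NSun3 construct as a mutant of the cysteine that releases the RNA, and the form of the NSun6 construct was not given in the sources used here. Poly(A) RNA of HEK293 was also analysed by bisulfite sequencing (2 samples in 1 table), which converts cytosines but spares 5-methylcytosine (m5C). Nothing in the labels says that the replicates came from separate cultures, so p-values measure the spread between these libraries, which may be technical.

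As background, hnRNPs coat nascent transcripts and can repress or enhance the use of splice sites, and SR proteins bind exonic sequences through RNA recognition motifs and recruit the splicing machinery through a domain rich in arginine and serine. SF3A and SF3B are parts of the U2 snRNP, which recognises the branch point. The SNRP genes encode the Sm ring shared by the spliceosomal snRNPs and proteins particular to U1 or U2. NSun6 methylates transfer RNAs at their 3′ end and mRNA cytosines at the start of the motif CTCCA, and NSun3 acts in mitochondria.

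The NSun6 libraries held 305392 to 467586 reads and the NSun3 libraries 47352 to 138921, so that 1 read stood for 2.14 to 3.27 RPM (the reads of a gene or cytosine over all reads of its library, times 1e+06) with NSun6 and for 7.20 to 21.1 RPM with NSun3. A gene without any NSun3 read may therefore have lain anywhere up to the 3 reads that a count of 0 allows, which is 47.2 RPM as the mean over the NSun3 libraries. As a check of the labels, exonic reads of NSUN6 itself numbered 323, 428 and 323 in the NSun6 libraries and 0 in each NSun3 library. Reads of NSUN3 numbered 32, 19 and 0 in NSun3 replicates 1, 2 and 3, and 8 in NSun6 replicate 3. The library labelled NSun3 replicate 3 thus held no read of the transfected gene, and the counts of calls and the read shares are also given without it. Of the mRNAs described here, 46 of 57 had an exonic NSun6 read (80.7%, against 52.0% of 19537 nuclear protein-coding genes), 32 had one in each of the 3 NSun6 libraries (22.2% of protein-coding genes did), and 5 had an NSun3 read.

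NSun6 reads gathered at a few single cytosines. At 10 cytosines in 8 of these mRNAs the reads exceeded 50 RPM in at least 2 of 3 NSun6 replicates (called high-confidence sites), and none did so with NSun3. These 8 were 14.04% of the 57 mRNAs, and 5.16% of nuclear protein-coding genes had such a site. The sequences of the 10 sites are shown because they carry the finding: 9 of 10 began the motif CTCCA at the site cytosine, as did 1050 of 1190 sites (88.2%) in other protein-coding genes. Each line gives the RNA strand from 5′ to 3′ as DNA letters, read from GRCh37, with 10 bases before the site cytosine. Capitals mark CTCCA or, for SRSF7, the site cytosine alone.
SRSF2, coding sequence, chr17:74732415-74732439 (minus): ctcggtcgacCTCCAagtccagatc
SRSF2, coding sequence, chr17:74732367-74732391 (minus): cctcgtcggtCTCCAgatctcgttc
SRSF4, coding sequence, chr1:29481217-29481241 (minus): gccggtcctaCTCCAgaagccggag
SRSF1, 3′ UTR, chr17:56082263-56082287 (minus): aatggtatgaCTCCAagtgctattg
SRSF7, 3′ UTR, chr2:38971054-38971078 (minus): accaggcattCtctagccttggtac
SF3B5, 3′ UTR, chr6:144416265-144416289 (minus): aggaccggctCTCCAtggctcctgc
SF3B5, 3′ UTR, chr6:144416281-144416305 (minus): gtattcctgtCTCCAaaggaccggc
SF3A1, 3′ UTR, chr22:30729968-30729992 (minus): cattgggatcCTCCAaaggcctgcc
SNRPD3, 3′ UTR, chr22:24970204-24970228 (plus): cttgcagattCTCCAcgcaatggaa
HNRNPL, coding sequence, chr19:39329221-39329245 (minus): gctgcagtgtCTCCAagcagccagc

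SR protein mRNAs held the largest part of the NSun6 reads on these genes, 43.0%, 50.4% and 54.9% in replicates 1, 2 and 3. SRSF2, which encodes a splicing activator formerly called SC35, had 275, 565 and 449 exonic reads in NSun6 replicates 1, 2 and 3 and none in the NSun3 libraries. Its level was 1176 ± 312 RPM (SD, n = 3) and, measured against the 3-read limit of the NSun3 libraries, at least 24.9-fold lower with NSun3 (quasi-likelihood test of edgeR, adjusted p = 0.000309). SRSF2, like the other called mRNAs without any NSun3 read (SRSF7, SF3B5, SF3A1, SF3B3, SF3A2, SNRPD3 and HNRNPUL1), passed the filter on low counts through its NSun6 reads alone, which fixed the direction, so the p-values of these 8 are given as a description and support nothing. The same holds for SRSF1, the other called mRNA, which had NSun3 reads in 1 library only and also passed through NSun6. The leading site of SRSF2, at base 480 of the 663 of its coding sequence, took 194, 367 and 335 reads, 69.5% of the NSun6 reads on the gene. A weaker site lay 48 nt downstream, at base 528, with 25, 19 and 31 reads, and replicate 2 was the one below 50 RPM there.

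SRSF1, the prototype SR protein ASF/SF2, had 166, 213 and 167 NSun6 reads, or 505 ± 46.1 RPM (n = 3), and the 3 replicates lay close together. NSun3 replicate 1 held 2 reads on this gene and the other NSun3 libraries none. The pooled ratio was 59.6-fold in favour of NSun6 (95% exact interval 16.4 to 493, counting error only), and the fitted log2 change, NSun3 minus NSun6, was -5.12 ± 0.96 (SE, edgeR adjusted p = 0.00272, a description). Without NSun3 replicate 1 no NSun3 read remained and the fitted value was -10.06, its direction fixed by the filter. With the replicate number as a block SRSF1 was not called (-6.17 ± 3.76 SE, edgeR adjusted p = 0.116). Of the NSun6 reads 85.9% belonged to 1 cytosine in the 3′ UTR, at base 493 of 4490, with 150, 179 and 140 reads. The 2 NSun3 reads lay in the coding sequence, away from that cytosine.

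SRSF7, which also acts in mRNA export, had 59, 106 and 59 NSun6 reads (201 ± 23.2 RPM), no NSun3 read and was called lower with NSun3 (edgeR adjusted p = 0.000959). Its site, at base 1210 of the 1537 of the 3′ UTR, was the one without CTCCA. It was nonetheless over 50 RPM in all 3 replicates, with 36, 65 and 50 reads. SRSF4 varied between replicates: 8, 70 and 56 reads (119 ± 83.6 RPM), with 1, 37 and 28 of them at its coding-sequence site, and 1 read in NSun3 replicate 1 elsewhere in the gene. The site was nearly empty in NSun6 replicate 1 and well filled in the others, and the gene did not pass the filter on low counts. SRSF3, a small SR protein that regulates its own splicing, had 4, 39 and 10 NSun6 reads. The remaining SR mRNAs with reads (SRSF5, SRSF6, SRSF8, SRSF9, SRSF10 and SRSF11) had 6 to 31 NSun6 reads in all, and SRSF12 had none.

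**Figure D1:**
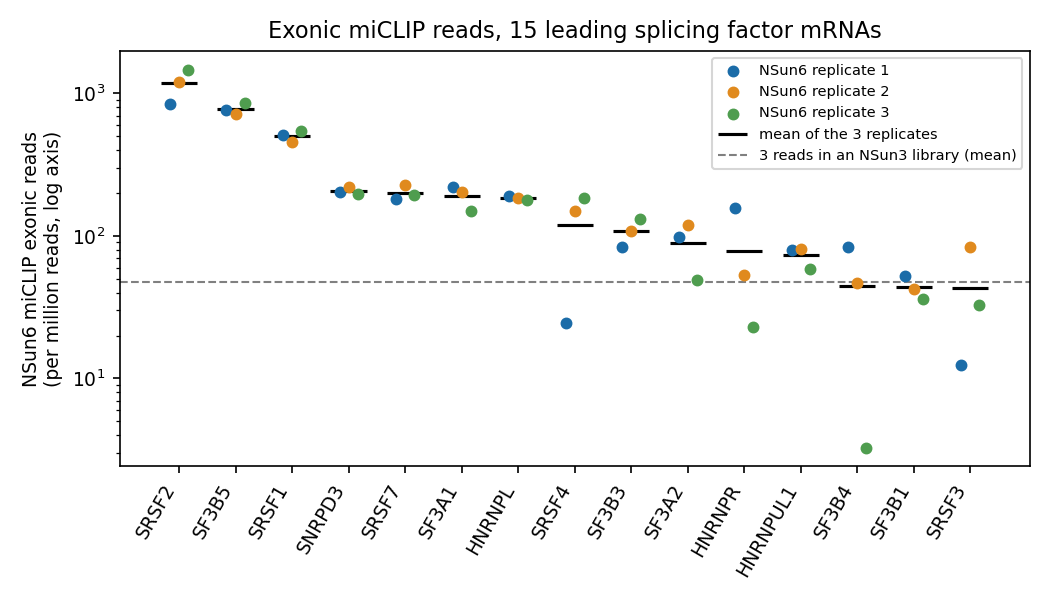
Exonic NSun6 miCLIP reads in RPM (log axis) for the 15 mRNAs with the most, 1 point per NSun6 replicate with the mean as a bar. The dashed line marks 3 reads in an NSun3 library (47.2 RPM). SRSF2, SF3B5 and SRSF1 lay above 400 RPM in every replicate, while SRSF4, HNRNPR, SF3B4 and SRSF3 spread widely between replicates.

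Among the U2 snRNP genes, SF3B5, a small subunit of SF3B encoded by a single short exon, had the highest level per length of all these mRNAs. It had 249, 338 and 262 NSun6 reads and none with NSun3, 783 ± 68.7 RPM (n = 3) or 1135 RPM per kb of exon, against 395 for SRSF2 and 87.3 for SRSF1. With NSun3 it was at least 16.6-fold lower (edgeR adjusted p = 0.000295). Its exons contain CTCCA at 2 places and both were high-confidence sites. They lie 16 nt apart in the 3′ UTR, at bases 82 and 98 of 356, with 42, 55 and 72 reads at the upstream, weaker one and 148, 156 and 105 at the downstream, leading one. SF3A1, the largest SF3A subunit, had 71, 95 and 46 reads (191 ± 35.9 RPM), at least 4.05-fold lower with NSun3 (edgeR adjusted p = 0.00155), and 74.5% of them were at its site at base 604 of 2609 of the 3′ UTR.

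SF3B3 (27, 51 and 40 reads) and SF3A2 (32, 56 and 15) had no NSun3 read and were called lower with NSun3 (edgeR adjusted p = 0.00353 and 0.0108), without a cytosine above 50 RPM in 2 replicates. The leading cytosine of SF3B3 held 61.9% of its NSun6 reads and did not begin CTCCA, whereas that of SF3A2 held 39.8% and did. SF3B4 had 27, 22 and 1 reads, so that replicate 3 was nearly empty. SF3B1, the SF3B scaffold that contacts the branch point region, had 17, 20 and 11 reads (43.8 ± 8.27 RPM). SF3A3 had 22 reads in all, SF3B2 13 and SF3B6 3.

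Of the SNRP genes, SNRPD3, a component of the Sm ring, stood above the rest with 66, 104 and 60 NSun6 reads (208 ± 13.4 RPM), none with NSun3, and was at least 4.40-fold lower there (edgeR adjusted p = 0.000772). A single 3′ UTR cytosine, at base 2272 of 2997, held 75.2% of them (48, 88 and 37 reads). SNRPB, SNRPC, SNRPG, SNRPA, SNRPB2, SNRPD2 and SNRPD1 followed with 4 to 33 NSun6 reads, of which 15 of 17 on SNRPA, the U1 protein A, were at 1 cytosine of the 5′ UTR with 5 reads in each replicate. SNRPA1, SNRPE, SNRPF and SNRPN had no read. Their exons had 22.9, 31.3, 17.2 and 0 bisulfite reads per cytosine, where the median of the members was 197. Of the 30-nt windows in exons, 72.7% for SNRPA1 and 73.3% for SNRPD1 were unique in the genome. Reads had to align to a single best place, so the low counts of SNRPA1 and SNRPD1 are uncertain.

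The 24 hnRNP mRNAs carried 11.3% to 13.9% of the NSun6 reads on these genes, and 15 of them had fewer than 10 NSun6 reads. HNRNPL, which binds CA-rich RNA, had the most among them with 62, 87 and 55 NSun6 reads (186 ± 5.65 RPM), of which 88.7% were at base 1359 of the 1767 of its coding sequence. It was also the member with most NSun3 reads: 83 in NSun3 replicate 1, all starting at a single position 351 nt from the NSun6 site (chromosome 19, 39329586), and none in NSun3 replicates 2 and 3. NSun6 replicate 1 had 2 reads at that same position and NSun6 replicates 2 and 3 had none. The groups overlapped, and HNRNPL was the 1 tested member that was not called (log2 change, NSun3 minus NSun6, 2.34 ± 1.91 SE, edgeR adjusted p = 0.27). The sign of this change turned with the scaling of the libraries, to -1.07 with RLE size factors in place of TMM (adjusted p = 0.2), and to -4.15 with the replicate number as a block (adjusted p = 0.421). Without NSun3 replicate 1 no NSun3 read remained, the gene passed the filter through NSun6 alone, and it was called lower at -8.62, a direction that the filter fixed.

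HNRNPR had 51, 25 and 7 NSun6 reads, most in replicate 1 and fewest in replicate 3, and HNRNPUL1 had 26, 38 and 18 (at least 1.56-fold lower with NSun3, edgeR adjusted p = 0.00346). HNRNPU, which binds chromatin-associated RNA, had 2, 32 and 12 NSun6 reads and 2 in NSun3 replicate 1, and SRSF11 had 3 in that library. The counting interval of the NSun6 over NSun3 ratio included 1 for SRSF11 (0.579 to 9.76) and not for HNRNPU (1.31 to 42.7), but this interval pools libraries. HNRNPU stood at 14.4 RPM in NSun3 replicate 1 and at 6.17 RPM in NSun6 replicate 1, so its groups overlapped. HNRNPC, HNRNPUL2, HNRNPA2B1, HNRNPLL and HNRNPH3 had 17 to 34 NSun6 reads, and HNRNPAB, HNRNPK, HNRNPD, HNRNPF, HNRNPA0, HNRNPH1, HNRNPM, HNRNPA1 and HNRNPA3 had 1 to 9. HNRNPA1L2, HNRNPA1L3, HNRNPCL1, HNRNPCL2, HNRNPH2 and HNRNPDL had none. Reads had to align to a single best place, and 25.5% to 41.1% of the 30-nt windows in the exons of HNRNPA1L2, HNRNPA1L3, HNRNPCL1 and HNRNPCL2 were unique in the genome, as were 59.2% for HNRNPA3, 69.7% for HNRNPK and 77.4% for HNRNPA1, so low counts of these genes are uncertain.

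In the comparison of the enzymes across all genes, 10 of the mRNAs passed the filter on low counts, 9 were called lower with NSun3, 0 higher, and HNRNPL was not called. Of 1449 genes tested 91.8% were called lower with NSun3 and 1.79% higher, so the members' share was near that of all genes. The median log2 change of the 10 was -7.91, beside -7.64 over all genes tested, and such fitted values depend on the prior count where NSun3 had no read. Of the 9 called, 8 had no NSun3 read and passed the filter through their NSun6 reads alone. Without NSun3 replicate 1, 17 of these mRNAs were tested and 17 called lower, where 94.4% of all genes tested were. No member read remained in the NSun3 libraries then, so these 17 could come out in 1 direction only and the count is no support. Without the library labelled NSun3 replicate 3, 17 were tested and 11 called lower, where 79.4% of all genes tested were. The 9 were among them, SRSF1 with a log2 change of -4.84 (edgeR adjusted p = 0.00328), and HNRNPL was again not called (2.59, adjusted p = 0.117). Per cytosine, 8 member cytosines passed the filter, all of them high-confidence sites without any NSun3 read. They passed through their NSun6 reads alone and had to come out lower, so their 8 calls (edgeR, beside 72.3% of 1775 cytosines) are a description and no support. Without the library labelled NSun3 replicate 3, 12 were tested and 11 called, where 71.03% of 3321 cytosines were. As a share of the reads in exons of nuclear protein-coding genes, these mRNAs held 0.869% ± 0.0713 with NSun6 and 2.91%, 0% and 0% in NSun3 replicates 1 to 3 (p = 1 in a two-sided exact permutation test, which cannot go below 0.1 here). The 83 HNRNPL reads at 1 position made up 91.2% of the member reads of NSun3 replicate 1. Without that library the NSun3 share was 0 (exact p = 0.2). Without the library labelled NSun3 replicate 3 the NSun3 mean was 1.46%, or 0.588 percentage points above NSun6 (exact p = 0.8).

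At the 9 sites with CTCCA, reads started mostly 1 nt downstream of the cytosine: 70.6%, 64.5% and 74.2% of the reads within 2 nt in replicates 1, 2 and 3, and 25%, 32.1% and 22.3% at the cytosine itself. In other genes the downstream position took 58.6% to 61.4%. SF3A1 and SRSF4 differed among the members, with most starts at the cytosine itself.

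**Figure D2:**
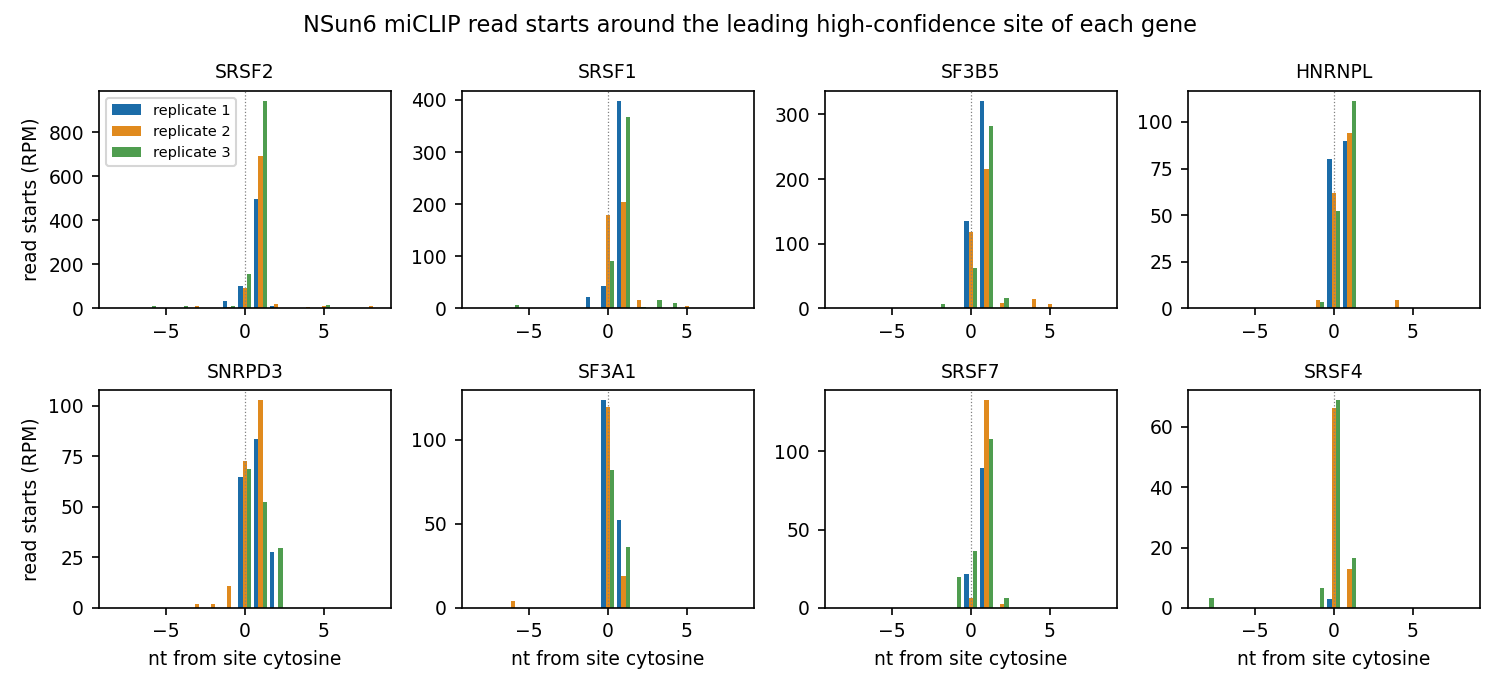
NSun6 read starts in RPM (vertical axis) by distance in nt from the site cytosine (horizontal axis, 0 is the cytosine) at the leading site of each of the 8 mRNAs, 1 colour per replicate. Within the 8 nt drawn on each side most starts sat at 0 or 1 nt downstream, the weaker SF3B5 site lies outside its panel, and the bars of SRSF4 are nearly absent in replicate 1.

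Across all NSun6 reads on these mRNAs, 49.2% ± 2.93 (n = 3) fell in 3′ UTRs, 47.4% ± 2.20 in coding sequence and 2.78% ± 0.808 in 5′ UTRs. For other protein-coding genes the 3′ UTR share was 44.3% ± 0.271 and the 5′ UTR share 6.38% ± 0.247, with the 3 replicates of both sets not overlapping in either region. SRSF2, SF3B5 and SRSF1 together held 54.2% to 62.2% of the members' reads, and no test of this difference was made. Of the 46 mRNAs with an NSun6 read, the leading cytosine began CTCCA in 28 (60.9%, and 65.4% of 9852 other genes), in 18 of the 22 with at least 10 reads there (81.8%, and 85.2% of 3842 other genes), and in 8 of the 11 with at least 30 (72.7%, and 89.7% of 1666). Of 166 CTCCA motifs in member exons with bisulfite coverage of at least 20, 42 (25.3%, exact 95% interval 18.9 to 32.6) had an NSun6 read and 8 (4.82%, 2.10 to 9.27) were high-confidence sites. Among 35168 in other genes the shares were 22.7% and 1.93%. The intervals treat motifs as independent, but the 8 sites lay in 6 genes, so they may be too narrow, and the difference was not tested. The motif was read in the strand of the RNA only. A folded 61-nt window gave the site cytosine an unpaired probability above 0.5 at 6 of 9 sites, beside 76.1% of the sites in other genes (interval for the members 29.9% to 92.5%). These 9 are not the 9 sites with CTCCA. HNRNPL was not folded because its window left the annotated stretch of exon, and SRSF7, without CTCCA, was included. The site of SF3A1 was mostly paired (0.0712).

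NSun6 reads and transcript coverage ordered these mRNAs differently. The bisulfite table gave a median of 197 reads per exonic cytosine over the 57 mRNAs and 10.9 over other protein-coding genes. The members held 1.55% of bisulfite reads over protein-coding exonic cytosines, more than their 0.869% of NSun6 reads. The part of this higher coverage in the shares of these mRNAs with an NSun6 read or site was not tested. Coverage was highest for SNRPD2 (2755 reads per cytosine), SF3B5 (2517), SRSF2 (1255), HNRNPF (1148) and HNRNPAB (920). SF3B5 and SRSF2 led in NSun6 reads as well, while SNRPD2, HNRNPF and HNRNPAB had 10, 7 and 9, or 1.87 to 6.83 RPM per kb. HNRNPH2 had 598 bisulfite reads per cytosine and no NSun6 read. CTCCA occurred 1 time in the exons of SNRPD2 and of HNRNPF, 2 times in HNRNPH2 and not at all in HNRNPAB. It occurred only 2 times in SF3B5 and 3 times in SRSF2, and 7 times in HNRNPA1, which had 2 NSun6 reads. The part of motif number in the NSun6 reads was not tested. Coverage was lowest for SNRPN (0), HNRNPCL2 (0.32), HNRNPLL (8.60), HNRNPA1L3 (9.85) and HNRNPCL1 (14.2), and 23.9% of SNRPN exon bases are shared with another gene. By family, the median was 6.48 RPM of NSun6 with 204 bisulfite reads per cytosine for hnRNPs, 12.7 RPM with 84.4 for SNRP genes, 27.8 RPM with 194 for SR proteins, 44.2 RPM with 284 for SF3B and 89.2 RPM with 151 for SF3A. Per kb of exon the medians were 1.12 RPM for hnRNPs, 4.93 for SR proteins, 5.90 for SNRP genes, 6.44 for SF3B and 30.3 for SF3A. Spearman's rho between NSun6 RPM per kb and bisulfite coverage was 0.437 over the 57 mRNAs and 0.695 over 19417 protein-coding genes, a description across genes that share libraries. The labels name no transfection for the bisulfite samples.

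**Figure D3:**
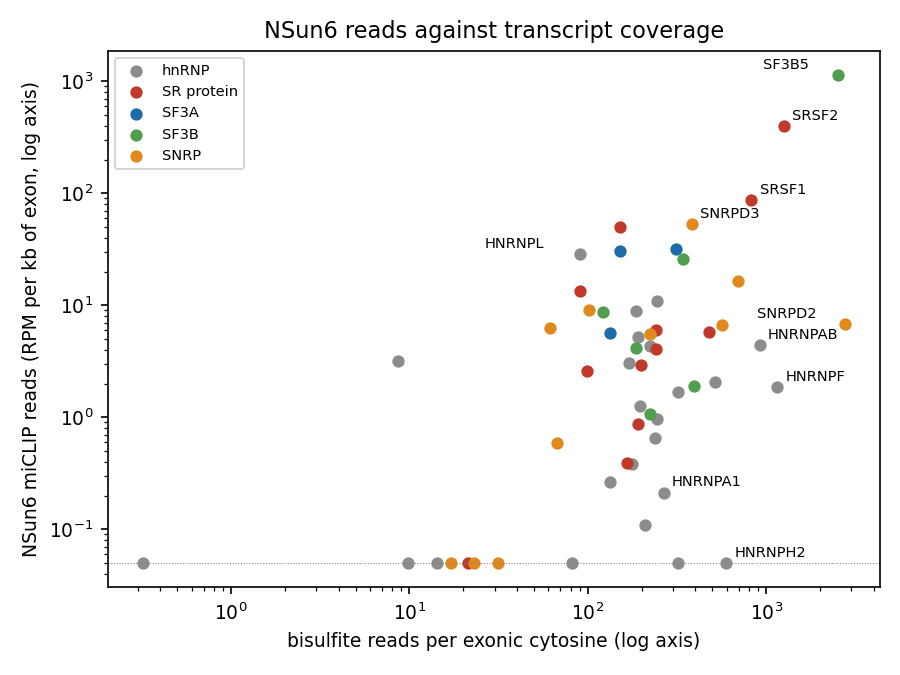
NSun6 miCLIP reads in RPM per kb of exon against bisulfite reads per exonic cytosine, both on log axes, 1 point per mRNA coloured by family. Points on the dotted line had no NSun6 read, and SNRPN, with no bisulfite read, is not drawn. SF3B5, SRSF2 and SRSF1 lie at the top right, while HNRNPF (1.87 RPM per kb) and HNRNPH2 (no NSun6 read) had high coverage with few NSun6 reads. SNRPD2, with the highest coverage, stood at 6.83 RPM per kb.

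At the NSun6 sites the bisulfite level was low but in several cases above that of the surrounding cytosines. The cytosine of SRSF1 had 66 unconverted of 3607 reads (1.83%, exact 95% interval 1.42 to 2.32), with 0.0381% at the other cytosines within 50 nt. SF3B5 at its leading site had 41 of 4917 (0.834%, 0.599 to 1.13), beside 0.0557%, and SRSF2 at its leading site 5 of 655 (0.763%, 0.248 to 1.77), beside 0.0573%. SNRPD3 was highest with 6 of 100 reads (6.0%, 2.23 to 12.6), with 0 of 3532 around it. These 4 passed Fisher's exact test (two-sided, adjusted over the 778 sites tested in all genes), as did 36.2% of those sites. The Fisher exact adjusted p was 1.05e-58 for SRSF1, 3.09e-29 for SF3B5, 2.63e-09 for SNRPD3 and 0.000445 for SRSF2. Fisher's test here compares reads of 1 table and has no replicate.

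The other 4 tested sites did not pass. SF3B5 at its weaker site had 8 of 4588 unconverted reads (0.174%, adjusted p = 0.052 by Fisher's exact test), and SRSF2 at its weaker site had 1 of 1057. The cytosines within 50 nt of the weaker SF3B5 site held 99 unconverted reads. These include 41 at the leading site and 17 at the cytosine at 144416345, which raise the level it was compared with. A comparison without them was not made. The neighbours of the weaker SRSF2 site likewise include its leading site. SRSF4 had 1 of 76, and SF3A1 had 0 of 104 (exact interval 0% to 3.48%). HNRNPL and SRSF7 had 2 bisulfite reads each and were not tested. No site reached 20%, and 20 of 770 in other genes (2.60%) did. Pooled over the 8 covered CTCCA sites the level was 0.847%, beside 0.0601% over 34 CTCCA cytosines of these mRNAs with NSun6 reads below the site threshold and 0.140% over 123 without a read. In other genes the same classes had 1.54%, 0.173% and 0.156%. Most of the pooled reads at the member sites came from SRSF1 and SF3B5. The other member classes also rested on few cytosines. Of the 73229 reads behind 0.0601%, single cytosines of SNRPD2, SRSF5 and SRSF1 held 35303, 10870 and 10563. Of the 62 unconverted reads behind 0.140%, single cytosines of SRSF10 and HNRNPD held 15 and 14. The difference between these classes was not tested, and the median level per cytosine was 0 in both. The median level per site was 0.799% in the members and 0.356% in other genes, at median coverages of 856 and 117.5. CTCCA cytosines at or above 20% were left out of these pooled and median levels.

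**Figure D4:**
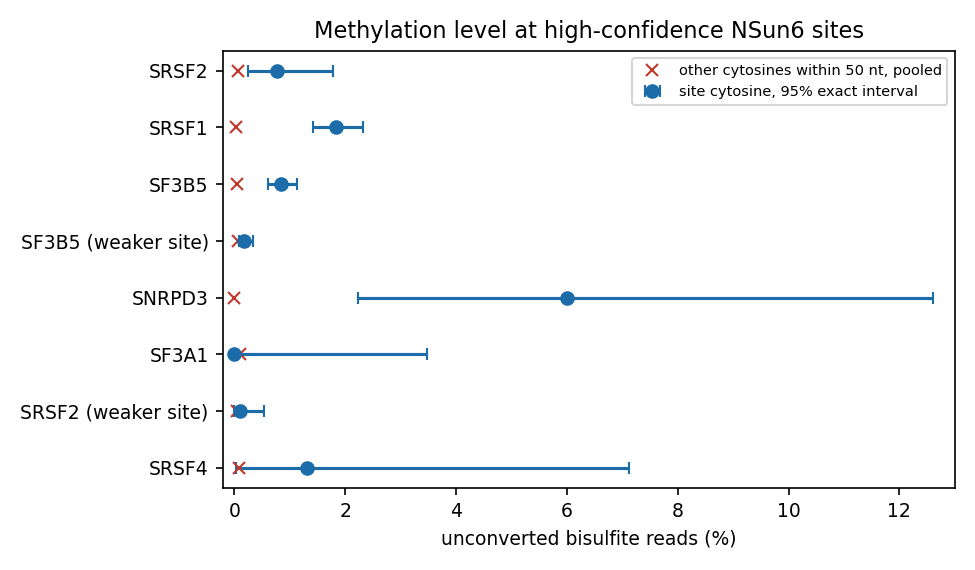
Unconverted bisulfite reads in percent at the 8 tested high-confidence NSun6 sites (points, bars are exact 95% intervals for counting error) and at the other cytosines within 50 nt pooled (crosses). The intervals of SRSF1, SNRPD3, the leading SRSF2 site and both SF3B5 sites lie above their crosses, that of the weaker SF3B5 site only just (0.0753 against 0.0698), and that of SF3A1 starts at 0. The cross of the weaker SF3B5 site includes the reads of the leading SF3B5 site.

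Cytosines with a level of at least 20% were elsewhere. Among 27635 exonic cytosines of these mRNAs with coverage of at least 20, 55 reached it (0.199%, exact interval 0.15 to 0.259), and 0.157% of 5207888 did over all protein-coding exons. The interval treats cytosines as independent, which neighbours on the same reads are not, so it is too narrow. They lay in 8 of the 55 mRNAs with such coverage, and 52 of them had another such cytosine within 10 nt. Among other protein-coding genes 1330 of 12760 had such a cytosine, and 739 of their 8097 were isolated. Isolated ones made up 0.0109% of the covered cytosines of the members and 0.0143% of those of other genes. None of the 3 isolated ones in the members was an NSun6 site. SF3B4 had one in its coding sequence (chromosome 1, 149895517) with 272 of 1226 reads (22.2%, 19.9 to 24.6), where the cytosines around it stood at 0.0258%, and no NSun6 read lay within 10 nt. The 25-nt context of this cytosine occurs 1 time in the genome, while 73.8% of the 30-nt windows of SF3B4 exons were unique. SF3B5 had one in its 3′ UTR (chromosome 6, 144416345) with 17 of 74 reads (22.97%), a coverage far below the mean of 4818 of its neighbours. Within 10 nt of it lay 35 NSun6 reads. The third, in the SNRPD1 3′ UTR, rested on 22 reads among neighbours at 38.5%.

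The deepest cluster was in HNRNPAB, where 10 cytosines within 37 nt of the coding sequence had 22.98% to 37.8% unconverted reads at coverages of 1304 to 1445, with no NSun6 read within 10 nt. It is shown because it held 10 of the 12 cytosines that were called at a coverage of at least 50. Capitals mark the cytosines of at least 20%, and the 25-nt contexts occur 1 time in the genome.
HNRNPAB, coding sequence, chr5:177631941-177631981 (plus): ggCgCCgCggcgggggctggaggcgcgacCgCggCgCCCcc
The called cytosines sat in a pair of runs rich in C and G, separated by a stretch at low level. The clusters of SNRPD3 (10 cytosines within 15 nt, coverage 43 to 46), SNRPA1 (9 within 22 nt, coverage 20 to 23) and SNRPD1 were in 3′ UTRs at low coverage, and their 25-nt contexts occurred 11 to 2034 times in the genome for SNRPD3, 763 to 192243 times for SNRPA1 and 121 to 21955 times for the largest cluster of SNRPD1. The contexts of the smaller SNRPD1 clusters occurred 2 to 20 times (4 cytosines) and 1 time (2 cytosines). SRSF11 had 3 neighbouring cytosines and HNRNPU 2, at coverages of 20 to 26. The part of incomplete conversion in these clusters was not tested.

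**Figure D5:**
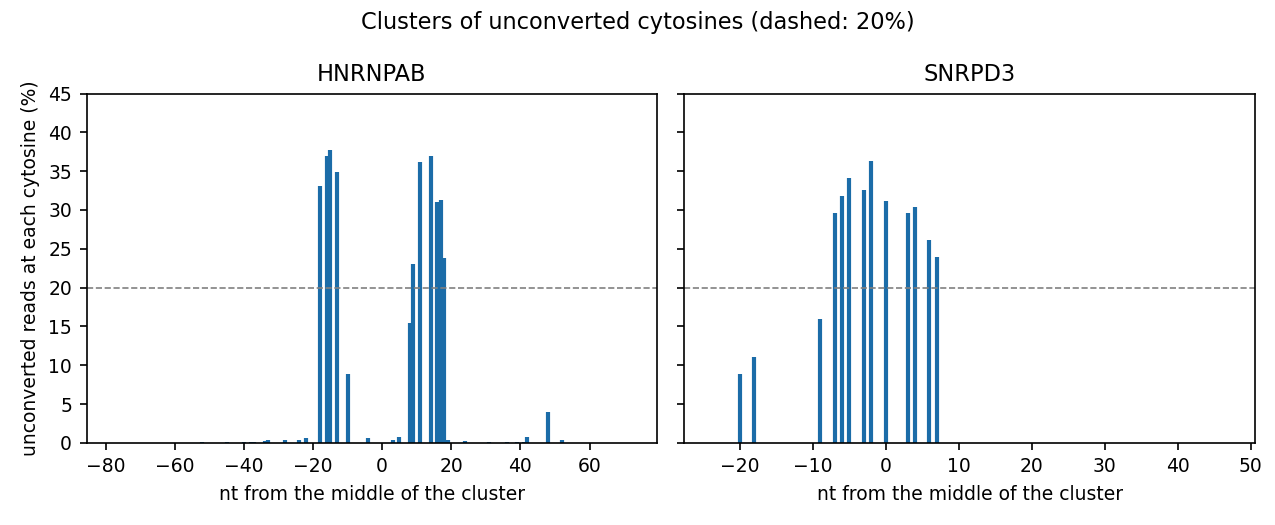
Unconverted reads in percent at each exonic cytosine with coverage of at least 20 around the clusters of HNRNPAB and SNRPD3, by distance in nt from the middle of the cluster (the dashed line marks 20%). In HNRNPAB 2 groups of high cytosines flank a stretch near 0, and in SNRPD3 the 10 called cytosines lie within 15 nt.

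In a list of 120 other genes of the spliceosome and RNA binding, an NSun6 read was found in 109, beside 52.0% of all nuclear protein-coding genes. Of these genes 22 were tested, 20 were called lower with NSun3 and 0 higher, beside 91.8% and 1.79% of all genes tested, so the list too was near the background. Of the 20 called, 14 had no NSun3 read and passed the filter through NSun6 alone, so their calls are a description. The median log2 change of the list was -7.30. The most reads fell on SRRM2, a large SR-related protein of nuclear speckles (2295 ± 248 RPM), SNRNP200, the U5 helicase (1785 ± 30.7), RBM17 (1704 ± 49.0), SRRM1 (848 ± 114) and CASC3, a component of the exon junction complex (719 ± 38.2). SNRNP200 was not called (edgeR adjusted p = 0.0523), with 31 reads in the library labelled NSun3 replicate 3 and none in the other NSun3 libraries, and it was called lower without NSun3 replicate 1 or 2 (edgeR adjusted p = 0.000535 and 0.035), and not without any 1 of the NSun6 libraries (adjusted p = 0.119 to 0.17). Without the library labelled NSun3 replicate 3 it was called lower too, at a log2 change of -11.77, but no NSun3 read remained and the filter fixed that direction.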

How the data were processed

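miCLIP was measured in 3 NSun3 and 3 NSun6 libraries and bisulfite sequencing of poly(A) RNA in 2 samples. The authors collapsed reads sharing a random barcode, clipped adapters, kept reads of at least 18 nt, aligned them to hg19 with bowtie (1 mismatch, single best place) and deposited read counts per truncation position. For bisulfite sequencing the authors aligned reads with Bismark and deposited, in 1 table for both samples, read counts per cytosine (methylated, unmethylated) with the percent methylated. Whether samples were pooled, and whether the deposited version is the one with or without removal of PCR duplicates (the methods mention both), is not stated, so intervals cover counting error only.

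The miCLIP files carry no strand. Their first pass over the chromosomes was taken as plus and the second as minus. Bisulfite positions were counted from 0 and moved by 1. Reads were assigned to exons (GENCODE on GRCh37) on the gene's strand, coding sequence before UTRs, and to the nearest cytosine within 2 nt. RPM used all reads of a library. The main test was edgeR 4.0.16 (TMM, filterByExpr, quasi-likelihood) on counts of all genes or cytosines, Benjamini-Hochberg adjusted, called under 0.05. Single values used exact permutation, methylation Fisher's exact test, shares exact binomial intervals. In simulated data 200 genes or cytosines were changed 8-fold, equally often up and down. Of the 94 changed genes that passed the filter 78.7% were recovered (1802 genes tested, 2.63% false calls). Of the 62 changed cytosines that passed it 56.5% were recovered (2126 cytosines tested, 2.78% false calls). Most genes of the real comparison were called in 1 direction, unlike in the simulation, so these rates need not hold there. Folding used ViennaRNA 2.7.2. The coverage minimum was 20 reads. Alternatives included DESeq2 1.42.0, other filters, scalings, leaving out libraries and a replicate block. Members and gene lists were chosen with earlier results of these data known. Named were the 15 members with most NSun6 RPM, every member with an NSun3 read or a high-confidence site, members without reads, isolated methylated cytosines, the 5 with the highest and the 5 with the lowest bisulfite coverage and 5 of the other list. Remaining members were named with their range, after their values were seen, to account for all.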

Additional observations from a re-analysis of the deposited data

Results flagged for a closer look

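Reads in the introns of these genes, on their own strand, belong to no comparison of counts per gene above and exceeded the 3 reads that a count of 0 allows in each NSun6 library: 48, 91 and 45 in NSun6 replicates 1, 2 and 3, against 3, 0 and 0 in the NSun3 libraries. They are flagged as a signal outside the exonic counts per gene. An intronic read start whose nearest cytosine within 2 nt was exonic was counted at that cytosine, so such starts could enter the counts per cytosine. The intronic position with most reads was in SNRPB (chromosome 20, 2443412; 4, 15 and 8 NSun6 reads), followed by SNRPC (chromosome 6, 34730371; 4, 7 and 5), which lies 1 nt before the leading exonic cytosine of SNRPC. Groups of 3 libraries are too small for a search for single libraries that stand apart.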

How the results depend on the processing

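Of 8 main results, 9 members called lower stayed 9 with RLE factors, DESeq2 and nuclear genes only, where 96.3%, 89.2% and 89.0% of all genes tested were called lower, and numbered 11 with whole gene bodies (84.8%). The direction of the 8 without an NSun3 read was fixed in each of these runs, so the steady count is no support. With no filter on low counts 23 of the 46 members tested were called (30.8% of all genes tested), and with positions counted once 1, the only member tested (68.8%). Leaving out a library gave 7 to 17 (75.2% to 94.4%), the highest without NSun3 replicate 1, where no member had an NSun3 read. With the replicate block 8 were called (79.7%), SRSF1 not being among them (-6.17 ± 3.76, adjusted p = 0.116), and 8 cytosines (66.9%). The replicate numbers are not stated to pair cultures, and same-numbered libraries of the enzymes deviated together weakly (correlations 0.0379, 0.0623 and 0.0252 over 1449 genes). Member cytosines called lower numbered 16 of 204 tested with no filter (9.5% of all cytosines tested), where 1 was called higher, and 8 to 12 without 1 library (58.4% to 83.1%). The share of all cytosines called higher with no filter was not counted, so that 1 call has no background beside it. The share of protein-coding exon reads, NSun3 minus NSun6, was 0.102 percentage points and turned to -0.471 with positions counted once, -0.407 with all reads as denominator and -0.45 with gene bodies; without 1 library it ranged from -0.869 (without NSun3 replicate 1) to 0.588. HNRNPL turned to -1.07 with RLE, -4.15 with the replicate block (log2), and ranged from -8.62 (without NSun3 replicate 1) to 2.62 without 1 library. Over 20 RPM there were 18 sites, and 8 to 9 without 1 NSun6 library. The 3′ UTR share was 46.2% with positions counted once. The methylated share was 0.322% at coverage of at least 10, 0.0583% at 50, 0.532% at a level of 10% and 0.0109% without clustered cytosines. The cause of these shifts was not tested. The 4 sites above their neighbours kept their calls under both alternatives. Over all genes, 274 of 778 sites were called with 20 nt on each side, and 288 of 886 with coverage of at least 10. Depth limits NSun3, where 1 read is up to 21.1 RPM.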
